A study of Oryzias latipes with 3 samples.

Results

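Among regions of the medaka (Oryzias latipes) embryo that carried both H3K4me3 and H3K27ac, 1579 pairs of peaks had the acetylation displaced to one side. H3K4me3 is trimethylation of lysine 4 on histone H3, and H3K27ac is acetylation of lysine 27 on the same histone. A pair belonged to the set when an H3K27ac peak and an H3K4me3 peak overlapped each other and no other peak of the opposite mark, when each mark ran past the other at one end only, and when the midpoints lay 200 bp or more apart. The 1579 shifted pairs were 14.6% of the 10786 one-to-one pairs (Wilson 95% interval 14.0 to 15.3). They took up 6.57% of the 24027 H3K27ac peaks and 12.3% of the 12884 H3K4me3 peaks. Peak positions chose the members, so widths, flanks and midpoint distances below are descriptions of the choice.

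Chromatin immunoprecipitation and sequencing had been done on whole stage 24 embryos raised at 26 °C and dechorionated by hand, with chromatin pooled from 600 embryos per sample. The labels give no genotype or strain and no treatment, and the samples differ in the antibody: Abcam for H3K27ac and Diagenode for H3K4me3. The series has 3 samples, and 1 peak list per mark was used; no list of the second H3K27ac sample was analysed. With 1 list per mark nothing below has a replicate check or a p-value, the read depth is unknown, and intervals cover counting error only. Whole embryos mix many cell types, so the marks of a pair may come from different cells.

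H3K4me3 is placed at active promoters by SET1 and MLL methyltransferases and is densest on the nucleosomes that flank the transcription start. H3K27ac is placed by the acetyltransferases p300 and CBP, at active promoters and at active enhancers. At promoters the marks usually share the same nucleosomes, and how far each reaches on either side can differ between genes. Promoter identity was not checked here, since no gene annotation in the coordinates of the lists was at hand. H3K4me3 peaks are therefore called by their mark, and regions are given by position, 1-based, in the unnamed genome build of the lists. The end of a pair where H3K27ac runs past H3K4me3 is called the acetylated side, and the other end the H3K4me3 side.

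The 10 pairs with the largest midpoint distance, between 1862 and 2517 bp, showed the shape at its most extreme. In all 10 the H3K27ac peak was the wider, at 3626 to 7079 bp, while the H3K4me3 peak measured 1101 to 3582 bp. The largest distance was on chromosome 16, where an H3K27ac peak at 15429821 to 15436899 (7079 bp) overlapped an H3K4me3 peak at 15429762 to 15431925 (2164 bp). The starts of these peaks lay 59 bp apart, and acetylation ran on for 4974 bp beyond the other end of H3K4me3. This was also the longest acetylated flank among the shifted pairs. A different shape was seen further along chromosome 16, where H3K27ac at 17746160 to 17749785 and H3K4me3 at 17744648 to 17746740 shared only 581 bp, with 3045 bp of acetylation on one side and 1512 bp of H3K4me3 without it on the other. On chromosome 14, an H3K27ac peak at 21904903 to 21910465 and an H3K4me3 peak at 21908622 to 21910469 ended within 4 bp of each other, and acetylation extended 3719 bp past the start of H3K4me3. The 10 were directed toward higher coordinates in 7 cases and toward lower coordinates in 3. Of the 10, 9 had an H3K27ac score below the median of the shifted pairs, and 6 had an H3K4me3 score below it.

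**Figure D1:**
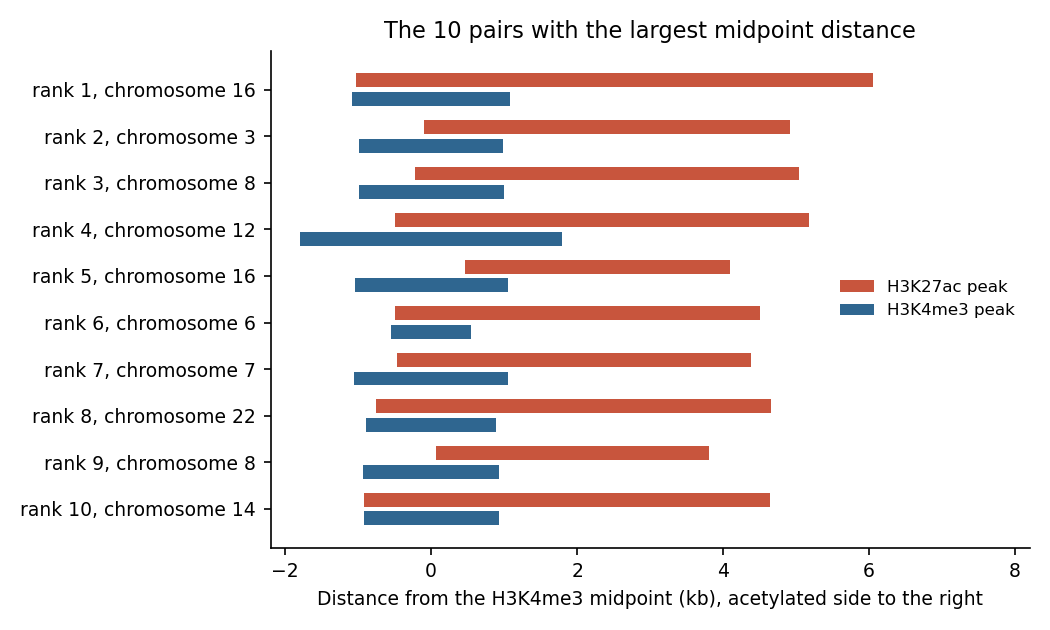
H3K27ac and H3K4me3 peaks of the 10 shifted pairs with the largest midpoint distance, drawn to scale against the distance from the H3K4me3 midpoint in kb. Pairs directed toward lower coordinates are turned so that the acetylated side is at the right; in each of the 10 the H3K27ac bar is the longer, and in rank 1 it reaches 4974 bp past the H3K4me3 bar.

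Most shifted pairs were far less displaced. The midpoint distance had a median of 306 bp (order-statistic 95% interval 294 to 317), with 48.6% of pairs between 200 and 300 bp and 69 pairs, or 4.37%, at 1000 bp or more. The fragments of all samples were 200 to 300 bp long, so displacements of 200 to 300 bp did not exceed the longest fragments. How finely peak edges were resolved was not tested. Set against the combined span of the pair, the median distance was 18.9%, and the largest 49.9%. The limit of 200 bp cut through a continuous distribution, with 108 shifted pairs below 210 bp and 132 one-sided pairs from 190 bp up to the limit. The first pair inside it, on chromosome 1, had H3K27ac at 2940116 to 2941519 and H3K4me3 at 2940511 to 2941524, with midpoints exactly 200 bp apart. Just outside it, on chromosome 8, midpoints of H3K27ac at 3988533 to 3990197 and H3K4me3 at 3988798 to 3990331 were 199.5 bp apart. Shifted pairs were 31.2% of the 5063 one-sided pairs (29.9 to 32.5), so most one-sided pairs were displaced by less. A further 676 one-to-one pairs had midpoints 200 bp or more apart but were not one-sided: in 406 acetylation passed H3K4me3 at both ends, in 267 H3K4me3 passed acetylation at both ends, and in 3 the peaks shared an edge.

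**Figure D2:**
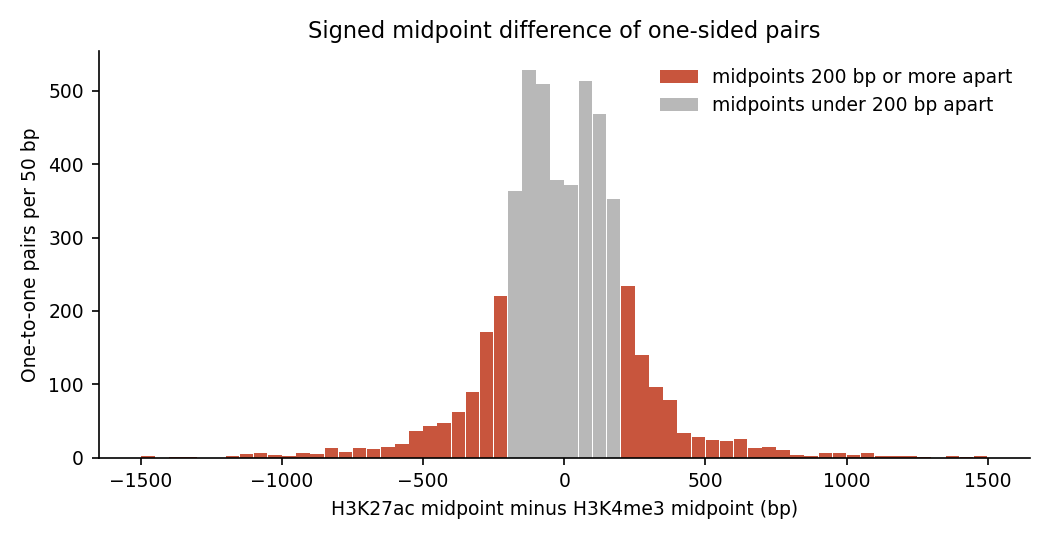
Number of one-sided pairs per 50 bp of signed midpoint difference, H3K27ac minus H3K4me3, with the 1579 shifted pairs and the 3484 pairs under 200 bp in separate colours. Both tails fall off, with uneven bins: 350 to 400 bp and 400 to 450 bp hold 79 and 34 pairs on the higher side, 62 and 47 on the lower. A further 25 shifted pairs at 1500 bp or more lie outside the axis.

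Direction along the chromosome was balanced. Acetylation was displaced toward higher coordinates in 778 shifted pairs and toward lower coordinates in 801, a share of 49.3% (46.8 to 51.7). One-sided pairs with midpoints under 200 bp apart gave 49.0% (47.3 to 50.6). Among the 24 chromosomes, 11 had more shifted pairs directed higher than lower and 1 had equal numbers. The frequency of shifted pairs ran from 10.5% of one-to-one pairs on chromosome 2 (7.47 to 14.6) to 17.7% on chromosome 14 (14.5 to 21.5), extremes picked from 24 whose intervals overlap slightly.

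A shift can come from acetylation that runs beyond H3K4me3 or from H3K4me3 that is left without acetylation, and both shapes were common. The acetylated flank had a median of 332 bp (315 to 346) and the H3K4me3 flank 279 bp (267 to 291), over a shared stretch of 1067 bp (1041 to 1088). H3K27ac was the wider peak in 866 shifted pairs, 54.8% (52.4 to 57.3). The share depended on the limit of the set: with midpoints 100 bp or more apart it was 44.5% (42.8 to 46.2). In the 866, acetylation passed H3K4me3 by a median of 520 bp, and H3K4me3 passed acetylation by 163 bp. In the other 713 the order was opposite, with a median acetylated flank of 147 bp and a median H3K4me3 flank of 414 bp. In a one-sided pair the wider mark always has the longer flank, so this order follows from the split. The H3K4me3 flank was under 100 bp in 274 shifted pairs and the acetylated flank in 237, which leaves 1068 in which both marks stood out by 100 bp or more.

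The make-up of the shift changed with its size. From 200 to 300 bp the median acetylated flank, 216 bp (200 to 237), was shorter than the median H3K4me3 flank, 265 bp (250 to 275). From 400 to 600 bp it was 647 bp (580 to 700), against 303 bp (262 to 360) of H3K4me3. At 1000 bp or more it was 2070 bp (1823 to 2416), against 475 bp (251 to 769). The midpoint distance is the mean of both flanks, so at least one must grow with it; the larger part of the growth was on the acetylated side. Since the wider mark has the longer flank, the share with H3K27ac wider restates the flanks. H3K27ac was the wider mark in 44.7% of pairs at 200 to 300 bp (41.2 to 48.3) and in 61 of 69, or 88.4% (78.7 to 94.0), at 1000 bp or more. Below the limit, from 100 to 200 bp, it was wider in 34.9% (32.7 to 37.2).

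**Figure D3:**
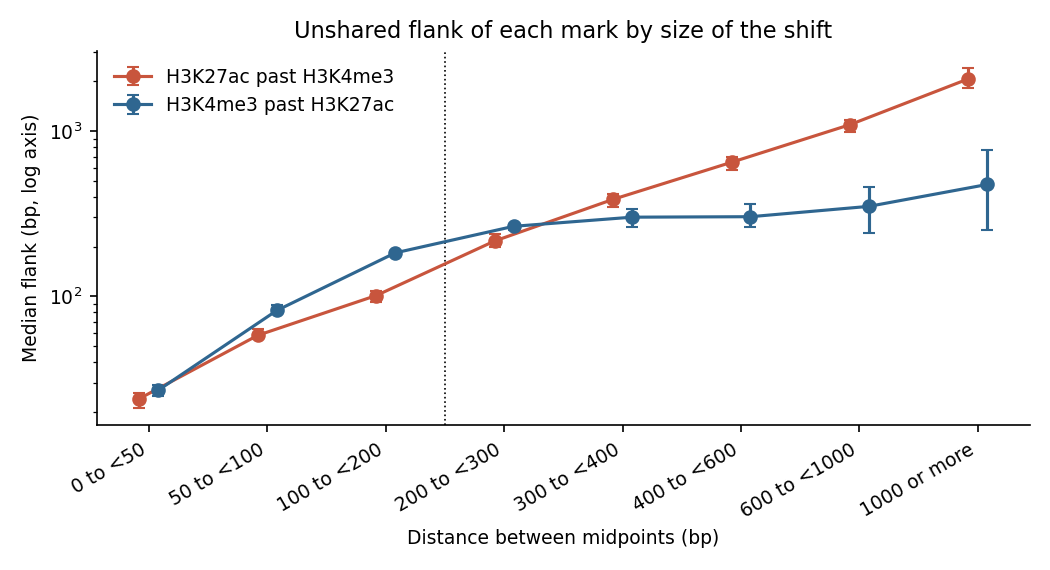
Median length in bp, on a log axis, of the H3K27ac flank beyond H3K4me3 and of the H3K4me3 flank beyond H3K27ac, by midpoint distance of one-sided pairs; bars are order-statistic 95% intervals and the dotted line is the 200 bp limit. The acetylated flank reaches 2070 bp in the last class, where the H3K4me3 flank is 475 bp.

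The longest H3K4me3 flanks belonged to pairs in which H3K4me3 was the wider mark. The 5 longest, between 1857 and 2535 bp, were on chromosomes 1, 7, 8, 9 and 24, and in all 5 both scores lay below the medians of the shifted pairs. Low scores were not particular to them. Of the 5 pairs with the longest acetylated flanks, 5 had an H3K27ac score below the median and 3 an H3K4me3 score below it. On chromosome 9 a 3260 bp H3K4me3 peak at 14619746 to 14623005 carried a 1219 bp H3K27ac peak at its higher end, 14622281 to 14623499. On chromosome 7 a 2015 bp H3K4me3 peak at 14299439 to 14301453 shared just 69 bp with a 527 bp H3K27ac peak at 14301385 to 14301911. These H3K27ac peaks scored 140 and 98.2, where the median of the shifted pairs was 542. Scores were assigned by the peak caller on a scale that the deposited lists do not explain.

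Peaks of shifted pairs were wider than those of other one-to-one pairs in both marks, which the rule favours, since narrow peaks cannot overlap when their midpoints lie far apart. Median H3K27ac width was 1450 bp (1411 to 1483) in shifted pairs and 1050 bp (1039 to 1062) in the 9207 other pairs. Of these others, pairs with acetylation past both ends had a larger median than shifted pairs, 1539 bp (1485 to 1597). One-sided pairs under 200 bp had 1098.5 bp, and pairs with H3K4me3 past both ends 904.5 bp. The H3K4me3 peaks measured 1383 bp (1361 to 1418) in shifted pairs and 1172 bp (1160 to 1181) in the others. Acetylation covered a median of 79.3% of the H3K4me3 peak in shifted pairs and 88.8% in the others. Among the others it was 78.2% where H3K4me3 passed acetylation at both ends and 91.9% in one-sided pairs under 200 bp. Where acetylation passed both ends it was 100% by definition.

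Scores, which the rule did not use, were close to those of the other pairs when taken over the whole set. The median H3K27ac score was 542 (507 to 581) in shifted pairs and 522 (507 to 537) in other pairs, and 51.6% of shifted pairs (49.1 to 54.0) lay above the median of the others. The median H3K4me3 score was 1311 (1240 to 1421) in shifted pairs and 1307 (1264 to 1348) in other pairs, with 50.2% (47.7 to 52.6) above the median of the others. The H3K27ac median of shifted pairs exceeded that of other pairs on 16 of 24 chromosomes, and the H3K4me3 median on 12. In the top 20% of the H3K27ac list by score lay 41.6% of shifted pairs (39.2 to 44.1) and 40.8% of the others (39.8 to 41.8). The other pairs mix groups with unlike scores, so this closeness holds for the pool only. The median H3K27ac score was 603 (577 to 638) in one-sided pairs under 200 bp. It was 572 (531 to 603) with acetylation past both ends and 443 (425 to 466) with H3K4me3 past both ends. In the same order, the H3K4me3 medians were 1437 (1364 to 1494), 815 (709 to 902) and 1385 (1328 to 1432).

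Pairs of equal acetylated width gave a different order. Among H3K27ac peaks of 1000 to 1500 bp, the median H3K27ac score was 539 in 548 shifted pairs and 720 in 3194 other pairs. For 1500 to 2000 bp it was 737 in 391 shifted pairs and 1075 in 1134 others, and for 2000 to 3000 bp 754 in 251 and 983 in 533. At under 1000 bp the medians were 211 in shifted pairs and 279 in others. Only at 3000 bp or more were they close, at 524 in shifted pairs and 522 in others. H3K4me3 scores were also lower in shifted pairs in the 4 classes under 3000 bp, for example 1285 in shifted pairs and 1723 in others at 1000 to 1500 bp, and higher at 3000 bp or more, 1370 in shifted pairs and 1053 in others. The share above the median of other pairs likewise depended on how the shift was defined. With a distance of at least 15% of the combined span in place of 200 bp, it was 38.7% for H3K27ac and 38.5% for H3K4me3.

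Within the shifted pairs, median scores were highest in the class of smallest distance and lowest in that of largest distance, which held 69 pairs. The median H3K27ac score was 627 (566 to 676) at 200 to 300 bp and 350 (253 to 495) at 1000 bp or more. At 300 to 400, 400 to 600 and 600 to 1000 bp it was 506, 487 and 518, with overlapping intervals. The median H3K4me3 score was 1556 (1442 to 1652) at 200 to 300 bp and 890 (474 to 1334) at 1000 bp or more. In the classes between, it was 1269, 1099 and 1098. Across the 1579 pairs, Spearman's rho between midpoint distance and score was -0.11 for H3K27ac and -0.15 for H3K4me3. Between the scores of the marks rho was 0.70. These coefficients are across regions of the same lists and describe them only.

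Strongly marked regions were displaced too. The 10 shifted pairs with the highest H3K27ac scores included 9 at 3100, the value at which scores of the lists pile up, and in 4 of these H3K4me3 was at 3100 as well. Scores of 3100 were about as frequent in the other one-to-one pairs. For H3K27ac they made up 0.57% of shifted and 0.58% of other pairs, and for H3K4me3 8.23% and 8.12%. The most displaced of the 10 lay on chromosome 15, with H3K27ac at 6662020 to 6665885 and H3K4me3 at 6662008 to 6664677. Acetylation began 12 bp inside the H3K4me3 peak and ran 1208 bp past its other end, a midpoint distance of 610 bp. On chromosome 17, H3K27ac at 12788802 to 12791350 and H3K4me3 at 12789592 to 12791361 ended 11 bp apart, with 790 bp of acetylation on the other side. In 5 of the 10 the H3K4me3 flank was under 20 bp, so that the marks nearly shared one edge and acetylation ran past the other. Among all shifted pairs 76 of 1579 had so short an H3K4me3 flank.

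The distances from shifted pairs to other peaks were not used by the rule, although it leaves out peaks that overlap more than one peak of the opposite mark, and in these distances the sides differed. The nearest other H3K4me3 peak lay on the acetylated side in 902 of the 1575 shifted pairs that had one on both sides, 57.3% (54.8 to 59.7). On that side it was a median of 21.9 kb away (20.2 to 24.2), and on the H3K4me3 side 29.5 kb (27.6 to 31.7). Distances run from the outer edges of the pair. The Wilson intervals of these shares take pairs as independent. Close pairs can share a nearest peak or be nearest to each other, so the intervals may be too narrow, also in the distance classes below. The share was above 50% on 21 of the 24 chromosomes and exactly 50% on 1, and ran from 48.9% to 75.6%. Measured from the H3K4me3 edges on both sides, which counts against the acetylated side, it was 56.3% (53.9 to 58.7), and it was 54.6% when the lists were limited to their top 50% by score.

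The excess was larger where the neighbour was closer, a comparison that has no test with 1 list per mark. With the nearest H3K4me3 peak under 2 kb away, it lay on the acetylated side in 100 of 144 shifted pairs, 69.4% (61.5 to 76.4). The share was 62.7% at 2 to 5 kb (55.9 to 69.0), 59.8% at 5 to 10 kb (54.4 to 65.0), 54.5% at 10 to 20 kb (49.4 to 59.5), 53.8% at 20 to 50 kb (48.5 to 58.9) and 49.5% beyond 50 kb (42.4 to 56.6). By midpoints, the shortest class held only 51 pairs and gave 51.0% (37.7 to 64.1), while 2 to 5 kb gave 70.5% (63.3 to 76.8). Measured from the H3K4me3 edges, the shortest class gave 63.1% (54.3 to 71.2). One-sided pairs with midpoints under 200 bp apart also had a gradient, with 63.5% (58.8 to 68.0) under 2 kb and 49.7% (44.4 to 55.0) beyond 50 kb. No class had an interval apart from that of the shifted pairs, so the excess was not shown to be larger at the 200 bp limit. Over all distances their share was 55.3% (53.6 to 57.0), an interval that overlaps that of the shifted pairs. By size of the shift, the share was 58.7% (55.2 to 62.2) at 200 to 300 bp. At 300 to 400 bp it was 58.3% (52.9 to 63.6) and at 400 to 600 bp 55.7% (49.5 to 61.7). It was 50.9% (43.3 to 58.5) at 600 to 1000 bp and 56.5% (44.8 to 67.6) at 1000 bp or more. From 400 bp up each interval includes 50%, and the intervals of all classes overlap.

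H3K27ac-only peaks, acetylated sites that share no base with H3K4me3 and include enhancer candidates, lay about equally often on both sides. The nearest of them was on the acetylated side in 792 of 1565 shifted pairs, 50.6% (48.1 to 53.1). Among the top 50% of both lists by score it was on that side in 53.2% (50.0 to 56.4), an interval whose lower bound lies just above 50%. Within 20 kb there were 828 on the acetylated side and 790 on the H3K4me3 side, a share of 51.2% (48.7 to 53.6). Under 2 kb the nearest was on the acetylated side in 71 of 129 pairs, 55.0% (46.4 to 63.4), an interval that includes 50%. Among the 69 pairs with midpoints 1000 bp or more apart, 45 had it on the acetylated side, 65.2% (53.5 to 75.4); the other classes of shifted pairs had intervals that include 50%, and this class was singled out after its value was seen.

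**Figure D4:**
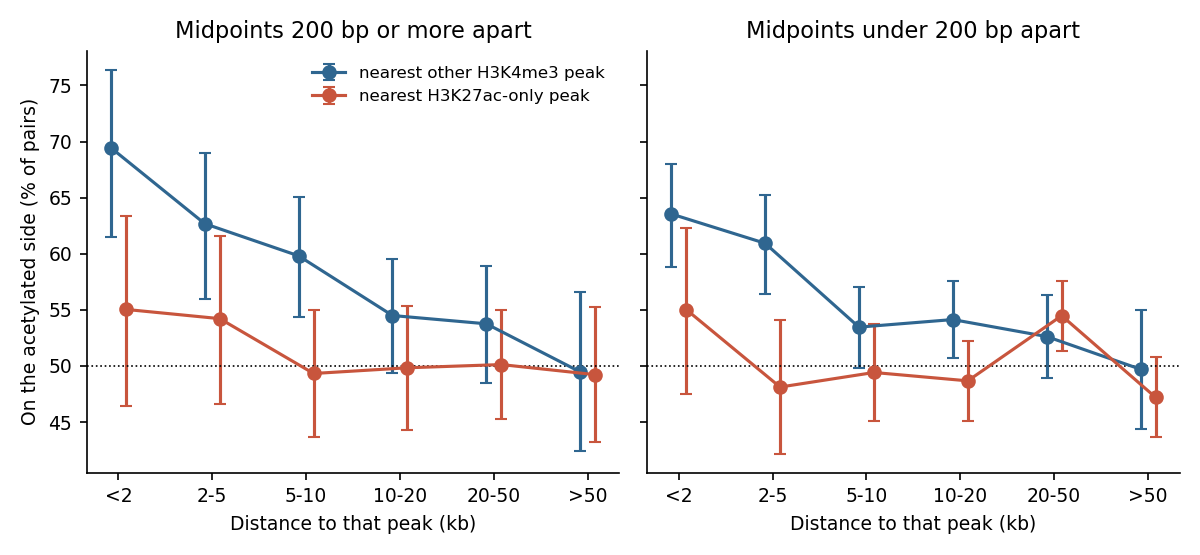
Share of pairs, in percent, whose nearest other H3K4me3 peak or nearest H3K27ac-only peak lies on the acetylated side, by distance to that peak in kb, for shifted pairs (left) and one-sided pairs under 200 bp (right); bars are Wilson 95% intervals and the dotted line is 50%. For H3K4me3 the share in shifted pairs falls with distance, 69.4% under 2 kb against 49.5% beyond 50 kb, while all intervals for H3K27ac-only peaks in shifted pairs include 50%.

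Both shapes of shift showed the excess toward neighbouring H3K4me3. With a neighbour under 5 kb away, it lay on the acetylated side in 61.9% of the shifted pairs in which H3K27ac was wider (55.2 to 68.2) and in 70.8% of those in which H3K4me3 was at least as wide (62.9 to 77.6). The neighbouring H3K4me3 peak was itself acetylated in 196 of 232 cases on the acetylated side, 84.5% (79.3 to 88.6), and in 98 of 122 on the H3K4me3 side, 80.3% (72.4 to 86.4). These shares were not particular to shifted pairs. For one-sided pairs under 200 bp they were 85.7% (82.6 to 88.4) and 81.8% (77.4 to 85.5). With the nearest H3K4me3 peak at 5 to 20 kb, the shares in shifted pairs were 92.1% (89.0 to 94.4) on the acetylated side and 88.9% (84.8 to 92.0) on the other. Of all 12884 H3K4me3 peaks, the 10786 in one-to-one pairs were acetylated by definition. Most H3K4me3 peaks were therefore acetylated, and the shares above are not read as a trait of close neighbours. The 89 H3K27ac peaks that bridged 2 or more H3K4me3 peaks are outside the set by its rule, so acetylation that filled the whole interval between close H3K4me3 peaks was not counted. A close H3K4me3 peak, under 5 kb from the outer edges, was present for 354 shifted pairs, or 22.4% (20.4 to 24.5). Among one-sided pairs under 200 bp the share was 25.7% (24.3 to 27.2).

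Among neighbouring shifted pairs with opposite directions, the share displaced toward each other had an interval that includes 50% at every limit but 5 kb. Of 105 neighbouring shifted pairs up to 20 kb apart, 56 were displaced in the same direction, 29 toward each other and 20 away from each other. Those displaced toward each other were 59.2% of the 49 with opposite directions (45.2 to 71.8), and 51.4% of 111 up to 50 kb apart (42.2 to 60.4). Up to 10 kb apart they were 20 of 30, or 66.7% (48.8 to 80.8), and up to 5 kb 12 of 16, or 75.0% (50.5 to 89.8), where a further 10 were displaced in the same direction. Among the one-sided pairs under 200 bp, 68 of 147 neighbours up to 5 kb apart were displaced toward each other and 16 away from each other. In these pairs, which are more numerous, the share toward each other among opposite directions was above 50% at each limit. It was 81.0% of 84 up to 5 kb (71.3 to 87.9) and 69.9% of 156 up to 10 kb (62.3 to 76.5). Up to 20 kb it was 63.2% of 296 (57.5 to 68.5), and up to 50 kb 55.7% of 589 (51.7 to 59.6). All of these intervals overlap those of the shifted pairs. Gaps between neighbours ran from outer edge to outer edge. These are H3K27ac edges for pairs displaced toward each other and H3K4me3 edges for pairs displaced away from each other. The measure thus affects which pairs fall within a short limit, and shares by gaps between H3K4me3 edges were not computed. By definition, H3K27ac peaks lie closer together than H3K4me3 peaks in pairs displaced toward each other, and farther apart in pairs displaced away. The order of the gaps in the following examples is therefore fixed by their class. On chromosome 5, H3K4me3 peaks at 12501960 to 12503124 and 12503711 to 12504971 were separated by 586 bp. Their H3K27ac peaks, at 12502048 to 12503444 and 12503542 to 12504684, were separated by 97 bp. On chromosome 10 the H3K4me3 peaks at 24159953 to 24161451 and 24163211 to 24164280 were 1759 bp apart and their H3K27ac peaks, at 24160358 to 24162186 and 24163052 to 24163984, were 865 bp apart. The closest neighbours displaced away from each other lay on chromosome 1, with H3K4me3 at 10324107 to 10324875 and 10325349 to 10326003, 473 bp apart, and H3K27ac at 10323484 to 10324764 and 10325758 to 10327017, 993 bp apart.

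H3K27ac-only peaks were denser around shifted pairs. Within 20 kb there was a mean of 1.02 per shifted pair and 0.79 per other one-to-one pair. The nearest lay a median of 15.6 kb away for shifted pairs (14.0 to 17.0) and 20.3 kb for the others (19.7 to 21.0). Pairs in which acetylation passed H3K4me3 at both ends were like the shifted pairs in this, with a mean of 1.01 and a median of 15.1 kb (14.0 to 16.3). H3K4me3 peaks were sparser, with 1.14 other peaks within 20 kb per shifted pair and 1.26 per other pair. The nearest H3K4me3 peak lay a median of 12.7 kb away for shifted pairs (11.7 to 13.7) and 11.1 kb for the others (10.7 to 11.3). Pairs with acetylation past both ends were again like the shifted pairs, with a mean of 1.16 and a median of 12.65 kb (11.9 to 13.6). All other H3K27ac peaks together, with or without H3K4me3, differed less, at 2.02 within 20 kb per shifted pair and 1.90 per other pair. For pairs with acetylation past both ends the mean was 2.01.

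The density of H3K27ac-only peaks was higher at larger shifts. From 200 to 300 bp there were 0.81 H3K27ac-only peaks within 20 kb per pair, from 400 to 600 bp 1.21, and at 1000 bp or more 2.07. The median distance to the nearest was 19.4 kb in the first of these classes and 5.17 kb in the last. Width moved with it: the H3K27ac peak had a median width of 1282 bp in the first class and 3366 bp in the last. Within classes of H3K27ac width, the means of shifted pairs lay above those of other pairs throughout, but the exact Poisson 95% intervals were apart in 1 class only. Such intervals take the counts as independent, while neighbouring pairs can count the same peak. They may therefore be too narrow, also in that class. At 2000 to 3000 bp there were 1.46 per shifted pair (1.31 to 1.62) and 1.13 per other pair (1.04 to 1.23). At 1000 to 1500 bp there were 0.84 per shifted pair (0.76 to 0.92) and 0.77 per other pair (0.74 to 0.80), and at 3000 bp or more 1.88 (1.61 to 2.18) per shifted pair and 1.69 (1.51 to 1.88) per other pair.

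**Figure D5:**
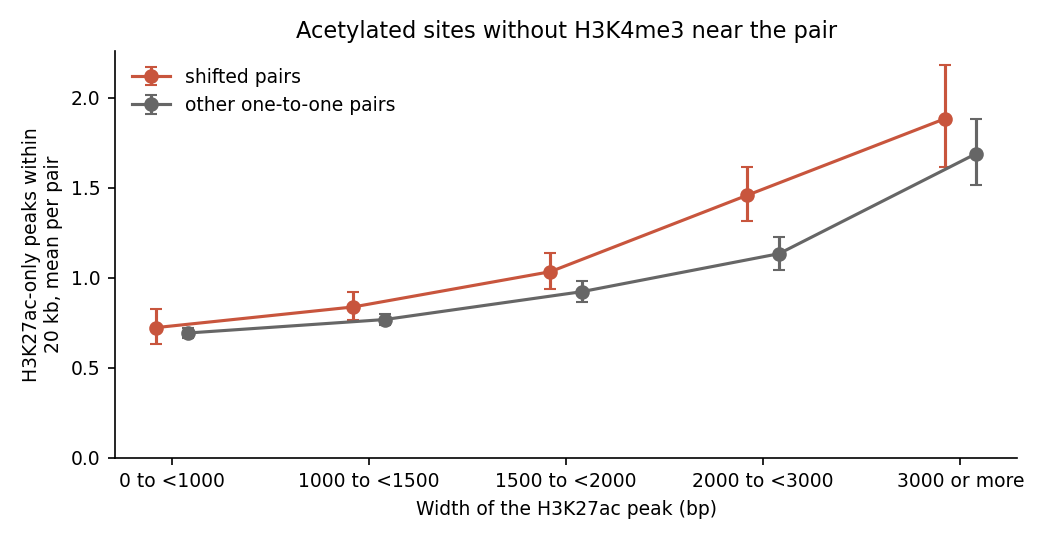
Mean number of H3K27ac-only peaks within 20 kb per pair, by width of the pair's H3K27ac peak in bp, for the shifted pairs and for the other one-to-one pairs; bars are exact Poisson 95% intervals. Both lines are highest in the widest class, at 1.88 in shifted pairs and 1.69 in other pairs.

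The shifted pair with most H3K27ac-only peaks around it was on chromosome 6, where H3K27ac at 16560373 to 16562477 and H3K4me3 at 16561349 to 16563678 had midpoints 1089 bp apart. It had 7 such peaks within 20 kb, 4 on the acetylated side and 3 on the other. The next 4 had 6 each. Among them were a pair of neighbours on chromosome 7, with H3K27ac at 4477273 to 4478508 and 4484540 to 4485870, both displaced toward lower coordinates and close enough for their counts to share peaks. On chromosome 16, the H3K27ac peak at 26932831 to 26936047 had 5 of its 6 on the acetylated side.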

How the data were processed

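The files are peak lists, 1 for H3K27ac and 1 for H3K4me3, each with chromosome, start, end, name and score. Alignment used Bowtie, per the submitters' processing notes. The deposited peak names contain MACS, a peak caller. No source used here gives its version, settings or control, the genome build or any pooling. The deposited score was compared only within its list. Deposited peaks of a list came as close as 1 bp (H3K27ac) and 3 bp (H3K4me3).

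Overlaps of at least 1 bp were found with an array routine, which gave 11178 overlapping pairs, as did bedtools 2.31.1, and was tested on simulated lists. Shares carry Wilson, medians order-statistic and counts exact Poisson 95% intervals. Software was Python 3.11.15 with SciPy 1.17.1, pandas 2.3.3, NumPy 2.4.6 and, for plots, matplotlib 3.10.9. Named regions are those of largest midpoint distance, highest H3K27ac score, longest flanks, most H3K27ac-only neighbours, closest members, and those beside the limit. The members and comparisons were chosen with earlier results of these data known. Distance and width classes were set after the data had been seen. Gene positions of another assembly and DNA sequence were not used here.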

Additional observations from a re-analysis of the deposited data

How the results depend on the processing

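Of 90 alternatives run, 64 stayed within the counting interval of the reported value (for the number of pairs, within 1.5 times), and 26 did not. None of the shares of neighbours or directions whose interval was apart from 50% turned to the other side of it, but the share with H3K27ac wider, 54.8% as reported (52.4 to 57.3), did at a limit of 100 bp. The limit on the midpoint distance set the number of shifted pairs, which was 3291 at 100 bp and 812 at 300 bp, against 1579 as reported. At these limits they were 30.5% and 7.53% of one-to-one pairs, the median distance was 194.5 and 447 bp, H3K27ac was wider in 44.5% (42.8 to 46.2) and 64.4%, and 57.2% and 46.3% (H3K27ac) or 56.4% and 42.6% (H3K4me3) had scores above the median of other pairs. A distance of at least 15% of the combined span gave 13.6% of pairs, H3K27ac wider in 49.7%, and score shares of 38.7% and 38.5%. The top 50% of both lists gave 948 shifted pairs, or 15.7%. There the nearest H3K4me3 peak lay on the acetylated side in 54.6%, the nearest H3K27ac-only peak in 53.2% (50.0 to 56.4), and 53.9% of H3K27ac-only peaks within 20 kb lay there. Merging peaks up to 500 bp apart gave 15.5% of pairs, a median of 324 bp and 48.5% above the H3K27ac median. By midpoints, chosen as an alternative for the distance classes after the data had been seen, the nearest H3K4me3 peak was on the acetylated side in 51.0% under 2 kb and 70.5% at 2 to 5 kb. No paired analysis was possible because only a single list per mark was used. Read depth is unknown, and weak peaks missing from a list would change which pairs are one-to-one.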
